A study of Bubalus bubalis with 12 samples.

Results

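CpG islands that the array's design tied to no gene symbol were followed in spermatozoa of 6 water buffalo bulls (Bubalus bubalis). The array annotates a CpG island probe with a gene symbol or, where it gives none, with a chromosomal region, and regions of the latter kind that held at least 2 probes were taken as members. They numbered 4929 regions with 63739 probes, 39.7% of the 160708 CpG island probes and 42.0% of the 11734 features (genes and regions) that had at least 2 usable probes. Another 5711 such regions had 1 probe and were left out. Sperm came from cryopreserved semen of 3 high-fertile bulls (HF2, HF3 and HF5) and 3 subfertile bulls (SF1, SF4 and SF5), and the labels give no breed, age or treatment. Each bull gave 1 array for histone H3 dimethylated at lysine 4 (H3K4me2) and 1 for histone H3 trimethylated at lysine 27 (H3K27me3), 12 arrays in all, with chromatin digested by micrococcal nuclease and precipitated by the antibody in the red dye (Cy5) and that bull's own input in the green (Cy3). Values are log2 of red over green, less the median of all non-control probes on the array, so they place a region within its array without giving an absolute level.

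Most histones of mammalian sperm are exchanged for protamines, and the nucleosomes that stay behind are known to lie in part at CpG-rich sequence, where the DNA is often unmethylated. H3K4me2 marks promoters and enhancers that are active or poised, and H3K27me3 is placed by the Polycomb complex PRC2 at silenced developmental genes. CpG islands far from an annotated start site are often called orphan islands. They can be promoters of transcripts that an annotation lacks or regulatory elements of distant genes. Whether the regions here are such islands, and what they do, was not analysed.

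The sequences below show what the probes read: the longest stretch covered by probes in the regions described first in each direction for H3K4me2 and for H3K27me3 between the fertility groups (the opening 4 lines; the smallest p among regions of at least 5 probes whose groups did not overlap), in those described first above and below the array median for H3K4me2 and for H3K27me3 (the next 4; by the same order among regions with one sign in all 6 bulls), and the opening 180 of 278 bases of such a stretch in the region with the most probes (the last). Letters are the probes' own, joined where they overlap, 5′ to 3′ on the forward strand as the array orients them, with each CpG in capitals; positions are those of the array's design, HGSC Btau_3.1 (cattle) per the file headers, and were not checked against a genome.
chr19:23658137-23658244: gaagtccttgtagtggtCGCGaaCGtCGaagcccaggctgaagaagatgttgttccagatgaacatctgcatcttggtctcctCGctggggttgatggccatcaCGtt
chr10:32494008-32494093: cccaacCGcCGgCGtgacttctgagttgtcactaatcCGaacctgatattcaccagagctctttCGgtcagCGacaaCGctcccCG
chr1:72534471-72534608: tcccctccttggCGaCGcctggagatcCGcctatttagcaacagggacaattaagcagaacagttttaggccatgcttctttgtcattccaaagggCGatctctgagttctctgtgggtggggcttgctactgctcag
chr23:49371701-49371825: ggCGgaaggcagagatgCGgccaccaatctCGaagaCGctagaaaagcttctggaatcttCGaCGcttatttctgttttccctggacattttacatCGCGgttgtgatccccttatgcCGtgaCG
chr13:57305919-57305998: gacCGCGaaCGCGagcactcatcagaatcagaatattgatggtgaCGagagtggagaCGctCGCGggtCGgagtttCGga
chr26:13857936-13858036: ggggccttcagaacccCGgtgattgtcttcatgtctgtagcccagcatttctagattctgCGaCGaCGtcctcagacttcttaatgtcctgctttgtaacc
chr16:41357187-41357295: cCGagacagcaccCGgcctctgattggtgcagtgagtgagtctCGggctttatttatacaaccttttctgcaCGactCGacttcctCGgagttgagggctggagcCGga
chr11:108224021-108224093: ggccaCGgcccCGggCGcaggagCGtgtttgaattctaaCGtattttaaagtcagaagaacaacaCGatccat
chr12:19009868-19010047: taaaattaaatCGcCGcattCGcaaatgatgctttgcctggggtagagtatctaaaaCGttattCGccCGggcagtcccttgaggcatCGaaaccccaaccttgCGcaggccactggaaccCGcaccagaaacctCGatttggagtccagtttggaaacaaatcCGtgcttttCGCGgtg
The 80-base stretch on chromosome 13, from the region described first above the median for H3K4me2, held 10 CpG at 56.3% G and C, and the 101-base stretch on chromosome 26, from that described first below it, held 4 at 50.5%. The stretch from the subfertile-high H3K27me3 region on chromosome 23 held 10 CpG in 125 bases and that from the high-fertile-high H3K27me3 region on chromosome 1 held 4 in 138. The 9 stretches are single examples, and no relation of CpG number with the marks is read from them.

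The regions were long and the probes covered little of them. The median region spanned 667 bp (302 to 19559) and held 8 probes (2 to 380), which together covered 123 bp, or 19.4% of its length. The 60-base probes were tiled densely within short stretches: 93.1% of neighbouring probes started less than 60 bases apart, 70.5% exactly 4 bases apart, and 2863 regions (58.1%) were read through 1 contiguous stretch. The covered sequence had a median of 53.1% G and C and an observed over expected CpG ratio of 0.79, and 3375 regions (68.5%) exceeded 50% G and C and a ratio of 0.6, limits in common use for a CpG island. The regions lay on 26 chromosomes, with 51 to 295 on each, and at a median of 71208 bp from the nearest probe that carried a symbol. Of all regions, 259 lay within 5000 bp of such a probe and 57 overlapped one. Whether the regions lie in exons, introns or between genes was not analysed here.

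In base composition the probes resembled those of symbol-named CpG islands more than promoter probes. They had a median of 50% G and C, and 95.7% contained a CpG; the symbol-named CpG island probes had 51.7% and 95.5%, and the promoter probes 46.7% and 65.6%. Of short motifs searched on both strands, GGGCGG (the core of the site of SP1, a factor that binds GC-rich promoters) was in 2.10% of the probes, against 2.41% of all probes on the array. CCAAT was in 7.29% against 8.12%, CACGTG (an E-box) in 2.00% against 1.82%, TATAAA in 2.35% against 2.18%, and TGACGTCA (a cyclic AMP response element) in 0.140% against 0.184%. The motifs were not tested for overlap with each other, and a match is a run of letters, not a bound site.

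The share of probes well above background ran from 97.1% to 99.9% over the arrays for input and from 93.9% to 99.98% for ChIP, where the H3K4me2 arrays of HF5 and SF5 were lowest. The 2 arrays of each bull shared a slide, slide 4 carried HF5 with SF1, and the remaining slides carried 1 bull each, so that there bull and slide cannot be told apart. The number of arrays limits the precision: the 95% confidence interval of a region's difference between the fertility groups had a median half-width, in log2 units, of 1.32 (H3K4me2) and 1.21 (H3K27me3).

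As a class the regions had a median within 0.061 log2 units of the array median in every bull. That median was taken over 177440 probes, of which 160708 are CpG island probes and 63739 lie in these regions. A class median near 0 is therefore largely set by the centring. The median H3K4me2 log2 ratio over the 4929 regions was 0.0080, 0.047 and 0.019 in HF2, HF3 and HF5, and 0.021, 0.0011 and 0.061 in SF1, SF4 and SF5, with 0.026 ± 0.023 (SD, n = 6) as the mean. For H3K27me3 these medians were 0.014, 0.016 and -0.050, and 0.028, -0.025 and -0.056, with -0.012 ± 0.036 (SD, n = 6) as the mean. The high-fertile and subfertile bulls overlapped for both marks: the H3K4me2 medians averaged 0.025 ± 0.020 (SD, n = 3) and 0.028 ± 0.031 (SD, n = 3), and the H3K27me3 medians -0.0068 ± 0.037 and -0.018 ± 0.042 (SD, n = 3 each). The 5406 symbol-named CpG island features had medians averaging 0.047 ± 0.035 for H3K4me2 and -0.0037 ± 0.034 for H3K27me3 (SD, n = 6), so that the unnamed islands lay lower by 0.021 ± 0.027 and 0.0086 ± 0.034, differences that are within the spread between bulls. Probes were also thinned within each region to those that share no base, with starts at least 60 bases apart. The class means were then 0.081 for H3K4me2 and 0.026 for H3K27me3.

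**Figure D1:**
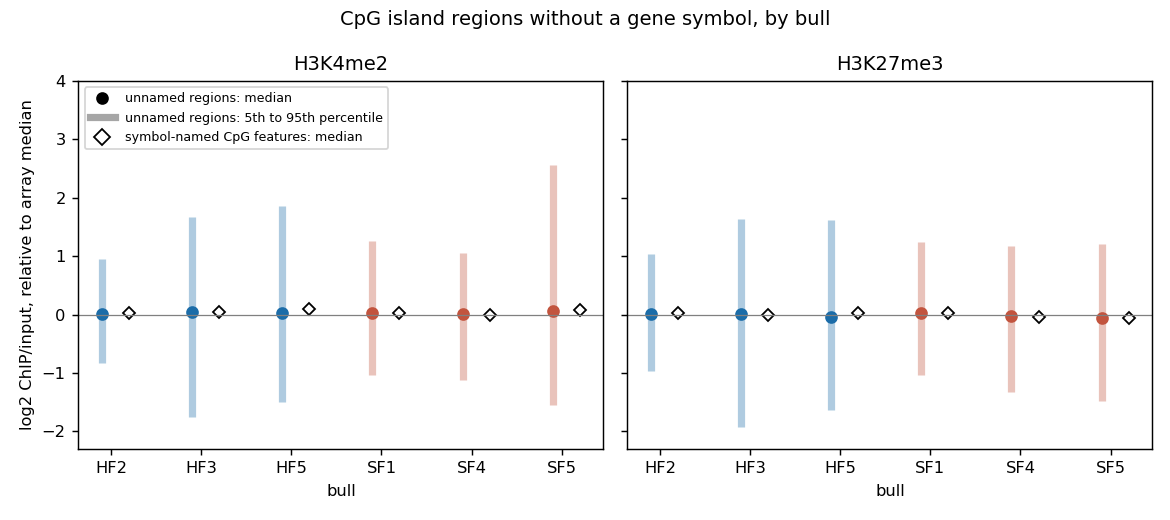
Median (point) and 5th to 95th percentile (bar) of the log2 ratio (ChIP/input, array median at 0) over the 4929 unnamed regions in each bull, with the median of the symbol-named CpG island features (diamond), for H3K4me2 (left) and H3K27me3 (right). All medians lie near 0, and the bar is widest in the H3K4me2 array of SF5, from -1.55 to 2.57.

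Around that shared centre the spread over regions differed between bulls. The SD over regions for H3K4me2 was 0.54, 1.03 and 1.03 in HF2, HF3 and HF5, and 0.70, 0.67 and 1.25 in SF1, SF4 and SF5; for H3K27me3 it was 0.62, 1.06 and 0.98, and 0.70, 0.76 and 0.81. Both marks were narrowest in HF2 and wide in HF3 and HF5. The share of regions above 1 log2 unit for H3K4me2 ran from 4.26% in HF2 to 22.9% in SF5, against 2.69% and 18.0% of the features with a symbol on the same arrays.

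The H3K4me2 levels of HF5 and SF5, 1 bull of each group and the arrays with the fewest probes above background, went with base composition. In the 47 regions of up to 45% G and C the median was -0.60 in HF5 and -0.38 in SF5, and in the 749 regions over 55% it was 0.24 and 0.23. In the other 4 bulls the medians of these groups ran from -0.13 to 0.20 and from -0.017 to 0.049. For H3K27me3 the medians of these groups were -0.65 and 0.097 in HF5, the same direction, and -0.026 and -0.044 in SF5. The 636 regions of 45 to 50% G and C had H3K27me3 medians of -0.22 in HF5 and -0.17 in SF5. In the 3497 regions of 50 to 55% the median was -0.043 in each of these bulls. The H3K4me2 arrays of HF5 and SF5 were also higher in regions of 2 to 4 probes, at 0.20 and 0.28, than in regions of 20 or more, at -0.18 and -0.083. Their H3K27me3 arrays were too, at 0.071 and 0.070 against -0.17 and -0.17. By distance from a symbol, the mean over bulls was -0.018 ± 0.022 for H3K4me2 within 5 kb of a symbol-named probe, 0.044 ± 0.040 at 5 to 50 kb and 0.021 ± 0.021 beyond 50 kb (SD, n = 6).

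Probes of one region were alike over a short range. Within an array, the log2 ratios of 2 probes that started 1 to 10 bases apart correlated at a median Pearson r of 0.92 over the 12 arrays, those 31 to 59 bases apart at 0.60, and those 60 to 119 bases apart, which share no base, at 0.45. At 120 to 249 bases r was 0.20, at 250 to 499 it was 0.042, and from 500 bases on it was at most 0.015. These values are descriptions across probe pairs, 88390 to 153148 per distance class, of which long regions give many. Neighbouring regions up to 1000 bp apart had a median r of 0.017 (257 pairs). The share of the variance between probes that lay between regions was 49.1% for H3K4me2 (37.4% to 54.0% over bulls) and 48.2% for H3K27me3 (41.6% to 54.3%). Over 8553 probes of 2591 regions chosen to share no base it was 17.4% and 16.7%.

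**Figure D2:**
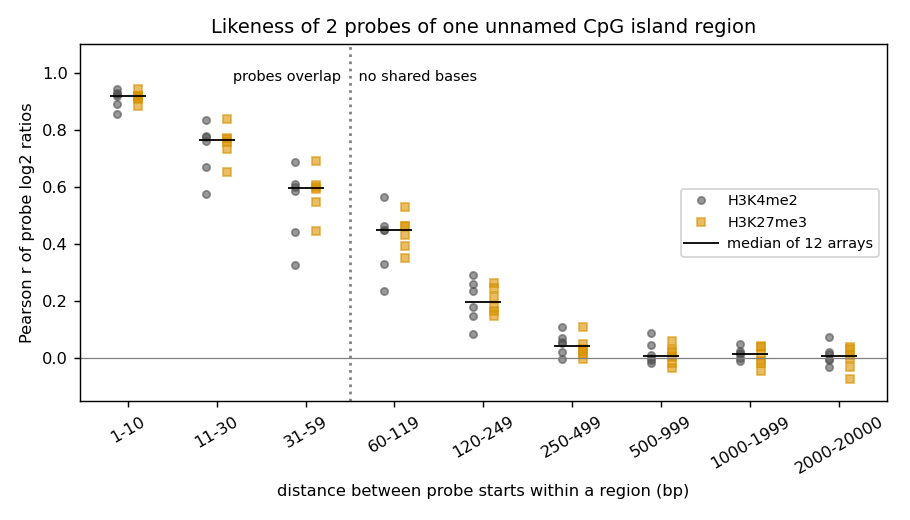
Pearson r between the log2 ratios of 2 probes of the same region against the distance between their starts in bp (classes on the horizontal axis), 1 point per array (circles H3K4me2, squares H3K27me3) and a bar at the median of the 12 arrays. The median falls from 0.92 at 1 to 10 bp to 0.042 at 250 to 499 bp.

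Values of different bulls were nearly uncorrelated over the regions. Log2 ratios of the same mark in different bulls correlated across the 4929 regions at a median r of -0.0036 over 30 pairs of arrays, from -0.12 for HF3 with HF5 to 0.21 for HF5 with SF5, both for H3K4me2. Pairs of bulls of one fertility group had a median of -0.022 (12 pairs) and pairs across groups 0.0042 (18 pairs). The 2 marks of a bull, which share that bull's input, correlated at 0.64, 0.80 and 0.43 for HF2, HF3 and HF5, and at 0.87, 0.40 and 0.24 for SF1, SF4 and SF5. The ChIP signal alone, as a deviation from the 6-bull mean, gave r of 0.42, 0.024 and 0.29, and 0.20, 0.019 and 0.0017, and the input signal 0.97 to 0.99. In 1549 regions (31.4%) the H3K4me2 ratio was above 0 in 3 of 6 bulls, and in 101 (2.05%, beside 2.03% of all features) in all 6. No region exceeded 1 log2 unit in all 6 bulls for either mark. For H3K4me2, 2657 regions did so in at least 1 bull, 112 in at least 3 and 1 in 5. Shares over all features were not computed for the 1549 regions or for the counts beyond 1 log2 unit. Nothing particular to the regions is read from these counts.

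The study's own question was whether the marks differ between high-fertile and subfertile sperm. For H3K4me2, 0 of 4929 regions passed an adjusted p of 0.05 in limma (Benjamini-Hochberg over all 11734 features, of which 0% passed), and the lowest adjusted p was 0.9997. At an unadjusted p under 0.05 there were 168 regions (3.41%), beside 2.86% of all features tested: 86 had the higher mean in high-fertile bulls (1.74%, beside 1.55%) and 82 the lower (1.66%, beside 1.31%). In 354 regions (7.18%, beside 6.83% of all features) the groups did not overlap, with all high-fertile bulls above in 173 (3.51%, beside 3.49%) and below in 181 (3.67%, beside 3.34%). The median difference over the regions, high-fertile minus subfertile, was -0.046, beside -0.028 over all features.

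The 5 regions with at least 5 probes and the smallest p among those where the groups did not overlap are described for each direction; none passed the adjusted threshold. Of the 5 higher in high-fertile bulls, chr19:23657490-23658334, 78063 bp from the nearest symbol-named probe, that of PAFAH1B1 (a regulator of the motor protein dynein), had the smallest p. Its 11 probes averaged 0.83 in HF2, 1.49 in HF3 and 2.20 in HF5, and -1.70, -0.61 and -0.65 in SF1, SF4 and SF5. The difference was 2.50 (95% confidence interval 1.25 to 3.74, limma unadjusted p = 0.00148), with all 3 high-fertile bulls above all subfertile bulls. chr18:11587019-11587405, of 9 probes, read 0.31, 1.38 and 0.11 in the high-fertile and -1.24, -1.29 and -1.31 in the subfertile bulls, a difference of 1.88 (unadjusted p = 0.00428 in limma). Its 3 subfertile bulls lay close together, and the high-fertile bulls were spread. chr10:87534662-87535536, 18956 bp from a probe of ACOT4 (an acyl-CoA thioesterase of peroxisomes), had close values in the high-fertile and spread ones in the subfertile bulls, with 1.08, 1.08 and 1.14 against -1.48, 0.26 and -1.08. chr18:45905280-45905840 lay 9749 bp from a probe of HSPB6, a small heat shock protein, and differed by 2.13 (unadjusted p = 0.00774 in limma). chr26:21877561-21878633 had the widest difference of the 5, at 3.02 (interval 1.00 to 5.05), from 0.40, 2.70 and 1.55 against 0.32, -2.93 and -1.80; HF2 and SF1 were nearly level there. With only probes that share no base kept, the difference of the chromosome 26 region was 0.61.

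Of the 5 described regions lower in high-fertile bulls, chr10:32493822-32494245 had the smallest p. It lay 6353 bp from a probe of MEIS2, a homeobox transcription factor of limb and heart development, and its 7 probes averaged -0.14, -0.74 and -0.52 in HF2, HF3 and HF5, and 1.43, 1.99 and 3.1 in SF1, SF4 and SF5. The difference was -2.64 (interval -3.88 to -1.41, limma unadjusted p = 0.000973). chr19:56578779-56579201 rested on 35 probes and read -0.24, -0.40 and -0.81 against 1.44, 1.04 and 1.13, a difference of -1.69. chr11:51635485-51638337 rested on 42 probes in 5 stretches and read -0.78, -0.77 and -0.54 against 1.31, 1.14 and 0.55, a difference of -1.70 (interval -2.70 to -0.69). These 2 regions had the most probes of the 10, and in both the bulls of each group lay close together. chr10:74856844-74858881 differed by -2.09 over 20 probes. chr23:52649504-52649835 differed by -2.49, with SF5 highest at 2.83, and by -1.47 without HF5 and SF5.

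For H3K27me3, 0 of 4929 regions passed an adjusted p of 0.05 in limma (0% of all features), with 0.9996 the lowest adjusted p. At an unadjusted p under 0.05 there were 198 regions (4.02%, beside 3.79% of all features), 100 higher in high-fertile bulls (2.03%, beside 2.03%) and 98 lower (1.99%, beside 1.76%), and without HF2 there were 339 in all (6.88%, beside 5.89% of all features). The groups did not overlap in 384 regions (7.79%, beside 8.24%). The median difference was 0.0092, beside 0.0077 over all features.

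The same rule chose the regions described for H3K27me3. Of the 5 higher in high-fertile bulls, the smallest p was that of chr1:72534063-72535110, with 20 probes in 1 stretch. It read 1.03 in HF2, 1.19 in HF3 and 0.91 in HF5, and -0.75, -2.34 and -1.84 in SF1, SF4 and SF5, a difference of 2.68 (interval 1.56 to 3.81, limma unadjusted p = 0.000517). The high-fertile bulls lay close together and the subfertile bulls ranged more widely. chr3:55955059-55955523 lay 9528 bp from a probe of BARHL2, a homeobox transcription factor of the developing nervous system, and read 0.50, 2.20 and 1.08 against -0.29, -1.75 and -1.82 (difference 2.54, unadjusted p = 0.00286 in limma). chr5:104164378-104166943 overlapped the probes of CDKN1B, the cyclin-dependent kinase inhibitor p27, and read 1.50, 0.44 and 0.83 against -0.32, -1.83 and -1.38 (difference 2.10, interval 0.90 to 3.29). chr4:117996596-117996947 differed by 2.48 and chr6:119070529-119071291, 18576 bp from a probe of WHSC2 (a subunit of the negative elongation factor), by 2.17. With only probes that share no base kept, the chromosome 6 difference was 0.64.

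Of the 5 with lower H3K27me3 in high-fertile bulls, chr23:49370965-49371875 had the smallest p, and its 17 probes averaged -2.52, -2.03 and -1.07 against 1.10, 0.90 and -0.16. The difference was -2.48 (interval -3.72 to -1.25, limma unadjusted p = 0.00159). chr29:51423669-51424131 lay 6957 bp from a probe of TNNT3, the troponin T of fast skeletal muscle, and had the tightest groups of the 10: -0.67, -0.65 and -1.0 against 0.65, 1.16 and 1.02, a difference of -1.72 (interval -2.59 to -0.84). chr25:42747850-42749123, 8985 bp from a probe of the translation initiation factor gene EIF3B, had the widest difference of the 10, -3.02, with SF1 at 2.62 and HF3 at -2.27. chr17:61559854-61560178 differed by -1.91. chr21:59826410-59826854, whose nearest symbol-named probe, that of the homeobox gene GSC, lay 66749 bp away, differed by -2.29.

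**Figure D3:**
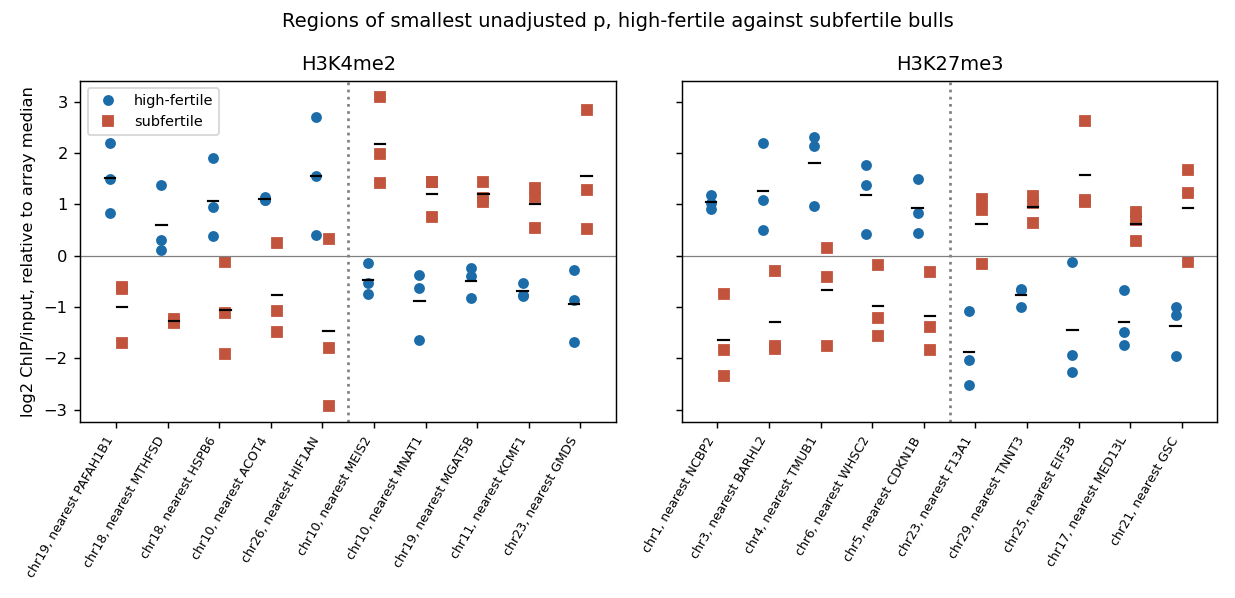
Log2 ratio (ChIP/input, array median at 0) of the 10 described regions per mark (H3K4me2 left, H3K27me3 right) in each high-fertile (circles) and subfertile (squares) bull, with a bar at each group's mean; regions are labelled by chromosome and nearest symbol-named probe. The groups do not overlap in any of them because the regions were picked that way; the values range from -2.93 to 3.1.

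A difference of the log2 ratio is the difference of the ChIP signal less that of the input. Picking regions for large ratio differences favours input differences of the opposite sign, so the split is given as a description. In log2 signals of the 2 colours, each relative to its array median, the input of chr18:11587019-11587405 was lower in high-fertile bulls by 1.66. Its H3K4me2 ChIP signal was higher by 0.22. Set against the bulls' average input, its difference of 1.88 became 0.26. That average is the same for every bull and cancels between the groups, so differences against it largely restate the ChIP difference. chr10:87534662-87535536, chr19:56578779-56579201 and chr11:51635485-51638337 were of the same kind, with input differences of -1.57, 1.30 and 1.38 and ChIP differences of 0.31, -0.37 and -0.31. At the other end, chr23:52649504-52649835 had an input difference of 0.27 and a ChIP difference of -2.21, and its difference against the average input was -2.17. The MEIS2-side region on chromosome 10 was split about evenly, 1.43 in input and -1.20 in ChIP. For H3K27me3, chr6:119070529-119071291 (input -0.20, ChIP 1.98), chr29:51423669-51424131 (0.35 and -1.34) and chr17:61559854-61560178 (0.54 and -1.34) lay mostly in the ChIP signal, and chr4:117996596-117996947 (-1.52 and 0.98) more in the input.

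Over all 4929 regions the 2 channels moved by like amounts: the median absolute difference between the groups was 0.27 in the input and 0.28 in the ChIP signal on the H3K4me2 arrays, and 0.28 in both on the H3K27me3 arrays. The input was the larger of the 2 in 48.9% and 49.0% of the regions. Of the 354 regions whose H3K4me2 groups did not overlap, 108 (30.5%) were also separated, in the opposite direction, by their input signal, beside 27.2% of all features whose ratio groups did not overlap. Their ChIP signal separated 70 (19.8%, beside 21.4%), and 6 (1.69%, beside 2.62%) were separated by both. Neither separated 182 (51.4%, beside 54.0%). For H3K27me3 the input separated 95 of 384 (24.7%, beside 23.1%) and the ChIP signal 90 (23.4%, beside 24.1%). Both separated 11 (2.86%, beside 2.48%) and neither 210 (54.7%, beside 55.3%). Over all 4929 regions, separated or not by their ratio, the input groups did not overlap in 406 on the H3K4me2 arrays (8.24%, beside 7.96% of all features) and 390 on the H3K27me3 arrays (7.91%, beside 7.93%), and the ChIP groups in 324 (6.57%, beside 6.72%) and 354 (7.18%, beside 7.96%). The part of the input in the differences was not tested. In the ratio, 67 regions (1.36%, beside 1.27% of all features) were separated in the same direction for both marks, 18.9% of those separated for H3K4me2 and 17.4% of those for H3K27me3, and 0 in opposite directions (beside 0.017% of all features); the 2 marks of a bull share its input.

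**Figure D4:**
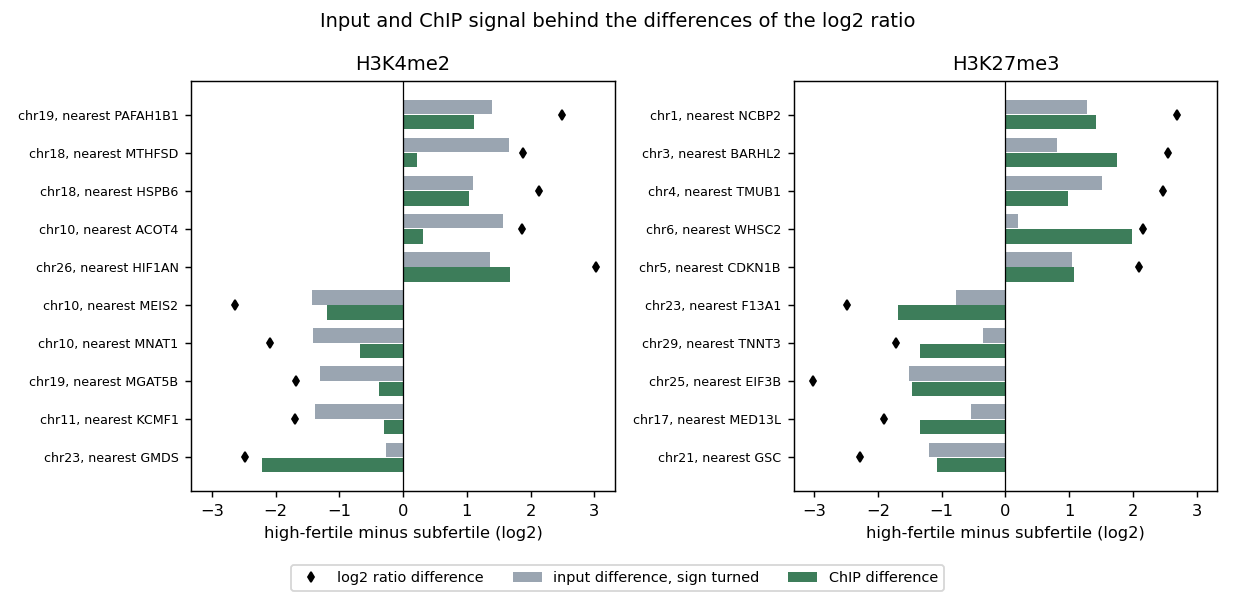
High-fertile minus subfertile difference (log2) in the ChIP signal (green bars), in the input signal with its sign turned (grey bars) and in the log2 ratio (diamonds) for the 10 described regions per mark, H3K4me2 left and H3K27me3 right. The grey bar is the longer one at chr18, nearest MTHFSD (1.66 against 0.22), and the green one at chr6, nearest WHSC2 (1.98 against 0.20).

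Whether the difference between the fertility groups itself differed between the marks was tested on all 12 arrays, without the bull as a block unless stated. No region (0 of 4929, 0% of all features) passed an adjusted p of 0.05 in limma, and 27 (0.548%, beside 0.580% of all features) had an unadjusted p under 0.05. With the bull as a block, which the pairing of a bull's 2 arrays allows, 198 regions (4.02%, beside 3.60% of all features) had an unadjusted p under 0.05 and 0 passed the adjusted threshold in limma (0% of all features). Groups did not overlap in the mark difference in 432 regions (8.76%, beside 9.08%). The described regions were ranked in the fit without that block. The smallest p belonged to chr23:52649504-52649835, where the H3K4me2 difference of -2.49 stood beside an H3K27me3 difference of 1.17 (interval -0.40 to 2.75). Its change between marks was -3.66 (interval -5.91 to -1.42, limma unadjusted p = 0.00392). With the bull as a block the interval of that change was -5.92 to -1.40 (limma unadjusted p = 0.0058). The H3K27me3 values there were 0.18, -0.08 and 0.55 in HF2, HF3 and HF5, and 0.33, -2.49 and -0.71 in SF1, SF4 and SF5. chr29:51423669-51424131 and chr6:119070529-119071291, described above for H3K27me3, had H3K4me2 differences of -0.12 and 0.11 and differed between marks by 1.60 and -2.06, the latter -1.14 without HF5. chr19:39207725-39208351, whose nearest symbol-named probe, 42593 bp away, was that of HOXB1 (a homeobox gene of hindbrain patterning), differed between marks by -3.05; its H3K4me2 value in SF5 was 3.93 and those of the other 5 bulls lay between -1.12 and 0.01, and the change between marks was -1.63 without SF5 and -0.96 without HF5 and SF5. chr15:84500086-84500402 (2.13), chr26:48466576-48466949 (3.00) and chr1:60698986-60700684 (1.73, 60 probes) had the reverse sign, as had chr17:13334049-13335839 (1.55). chr14:80665391-80665703 (-2.55) and chr18:52010698-52011317 (-1.43, and -0.86 without SF5) had the sign of the chromosome 23 region.

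H3K4me2 was set against H3K27me3 on all 12 arrays, without the bull as a block unless stated. 0 of 4929 regions (0% of all features) passed an adjusted p of 0.05 in limma; 26 (0.527%, beside 0.503%) had an unadjusted p under 0.05, and 204 (4.14%, beside 3.72%) with the bull as a block, of which 0 passed the adjusted threshold. The described regions are the 5 per direction of smallest p among those of at least 5 probes with one sign in all 6 bulls. The median difference was 0.083, beside 0.070 over all features. One sign in all 6 bulls was shown by 144 regions (2.92%, beside 3.26%), 105 with H3K4me2 higher (2.13%, beside 2.29%) and 39 with H3K27me3 higher (0.791%, beside 0.972%). chr28:16819641-16820267, a region of 5 probes, had a mean difference of 2.12 (interval 0.35 to 3.88, unadjusted p = 0.0225 in limma), made of 4.95 in HF5 and 6.36 in SF5 and 0.18 to 0.48 in the other 4 bulls; it was 1.12 without SF5 and 0.35 without HF5 and SF5. With the bull as a block its interval was -0.0081 to 4.24 and included 0 (unadjusted p = 0.0507 in limma). chr23:8567627-8568614, 30333 bp from a probe of HMGA1 (an architectural chromatin protein), read 0.60, 2.26, 2.74, 0.12, 1.23 and 5.14 in HF2, HF3, HF5, SF1, SF4 and SF5, for a mean of 2.02, with 1.27 without SF5 and 1.05 without HF5 and SF5. chr11:108666119-108666786, 71951 bp from a probe of BRD3 (a reader of acetylated histones), had 1.04, 0.71, 0.29, 0.35, 1.85 and 0.09 in the same order, a mean of 0.72, with 0.45 without SF4 and 0.99 without HF5 and SF5. chr1:84871404-84872206 and chr25:41079290-41081003 complete the 5, at 1.19 and 0.57; the former rested on SF5 at 4.04 and was 0.61 without it. In the other direction chr13:82335901-82336218 had a mean of -1.07, with HF5 at -3.24 and SF4 at -0.01 (-0.68 without HF5), and chr15:18412724-18413461 one of -0.94. chr5:60736747-60737128, 7807 bp from a probe of SHMT2 (a mitochondrial enzyme of one-carbon metabolism), ran from -1.33 in SF4 to -0.25 in HF5 with a mean of -0.56, the narrowest range of the 5. chr2:96448446-96449248 and chr4:78684062-78684450 had means of -0.61 and -0.81, with a bull each close to 0, SF5 at -0.03 and HF5 at -0.01. Without SF5 the chromosome 4 mean was -0.50. The intervals of the described regions on chromosomes 2, 4, 5, 15 and 25 included 0 without the block (limma unadjusted p from 0.060 to 0.12). With the bull as a block those intervals excluded 0 (limma unadjusted p from 0.0056 to 0.037, adjusted p 0.939). The block uses the same 6 differences whose common sign chose the regions, which favours such intervals, so nothing is read from them.

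The last comparison asked which regions lay above or below the array median in all bulls. For H3K4me2, 0 of 4929 (0% of all features) passed an adjusted p of 0.05 in limma, 204 (4.14%, beside 4.06%) had an unadjusted p under 0.05, and 152 (3.08%, beside 3.37%) had one sign in all 6 bulls, 101 above (2.05%, beside 2.03%) and 51 below (1.03%, beside 1.35%). For H3K27me3, 0 (0% of all features) passed in limma, 274 (5.56%, beside 5.13%) had an unadjusted p under 0.05 and 169 (3.43%, beside 3.48%) one sign, 71 above (1.44%, beside 1.55%) and 98 below (1.99%, beside 1.93%). With the bulls' average input in place of each bull's own, 513 (10.4%, beside 9.79% of all features) and 633 (12.8%, beside 11.1%) regions had an unadjusted p under 0.05 and 0 passed the adjusted threshold, with lowest adjusted p of 0.454 and 0.190 in limma.

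chr13:57304864-57306267, whose sequence of 10 CpG in 80 bases is printed above, read 0.74, 1.21, 2.06, 0.15, 0.86 and 0.85 for H3K4me2 in HF2, HF3, HF5, SF1, SF4 and SF5, a mean of 0.98 ± 0.63 (SD, n = 6). chr18:61895270-61895598 was the highest of the 5 at 1.32 ± 0.97 (SD, n = 6), with SF1 at 0.13 and SF5 at 2.68, and 0.81 without HF5 and SF5. chr4:121328296-121328626, 33896 bp from a probe of INSIG1 (a sensor of sterol synthesis), was among the 5 described above the median for both marks, at 0.89 ± 0.48 for H3K4me2 and 1.04 ± 0.66 for H3K27me3 (SD, n = 6). Its input lay 1.39 and 1.38 log2 units below the array median. chr23:51963131-51963432 read between 0.22 in SF4 and 1.01 in SF1, and chr1:156515048-156515476 between 0.36 in HF2 and 2.34 in SF5. Below the median, chr26:13857877-13858340 read -1.34, -2.57, -0.99, -0.48, -1.95 and -1.18, a mean of -1.42 ± 0.74 (SD, n = 6; limma unadjusted p = 0.00115). chr2:123543248-123544405 was among the 5 described below the median for both marks, at -1.18 ± 0.48 for H3K4me2 and -1.44 ± 0.79 for H3K27me3 (SD, n = 6), and the 2 marks share the bulls' input. chr24:3171651-3172214, chr12:35570225-35570531 and chr19:38283240-38283994, the last 28091 bp from a probe of the neurotrophin receptor gene NGFR, averaged -1.44, -1.42 and -0.97.

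For H3K27me3, chr16:41356772-41357480 had the most even values of the 5 described above the median: its 21 probes averaged 0.69, 0.91, 1.05, 0.36, 0.71 and 0.71 in HF2, HF3, HF5, SF1, SF4 and SF5, a mean of 0.74 ± 0.23 (SD, n = 6; limma unadjusted p = 0.0041). chr6:7801198-7802001, of 31 probes, had 0.71 ± 0.37, and chr5:60736747-60737128 had 0.84 ± 0.50 (SD, n = 6). chr19:49893355-49894032 overlapped the probes of TEX2 and averaged 1.27 ± 1.28 (SD, n = 6), with HF5 at 3.07 and SF1 at 0.01. Of the 5 described below the median, chr11:108223368-108224509 read -1.12, -1.59 and -1.52 in the high-fertile and -0.54, -0.74 and -0.31 in the subfertile bulls, a mean of -0.97 ± 0.53 (SD, n = 6; limma unadjusted p = 0.000879). chr28:12228833-12229607, 20071 bp from a probe of the receptor tyrosine kinase gene RET, averaged -1.62 ± 0.93 (SD, n = 6), and -0.25 with only probes that share no base. chr18:64464508-64464844 and chr16:43578368-43578776 averaged -1.02 and -1.27.

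**Figure D5:**
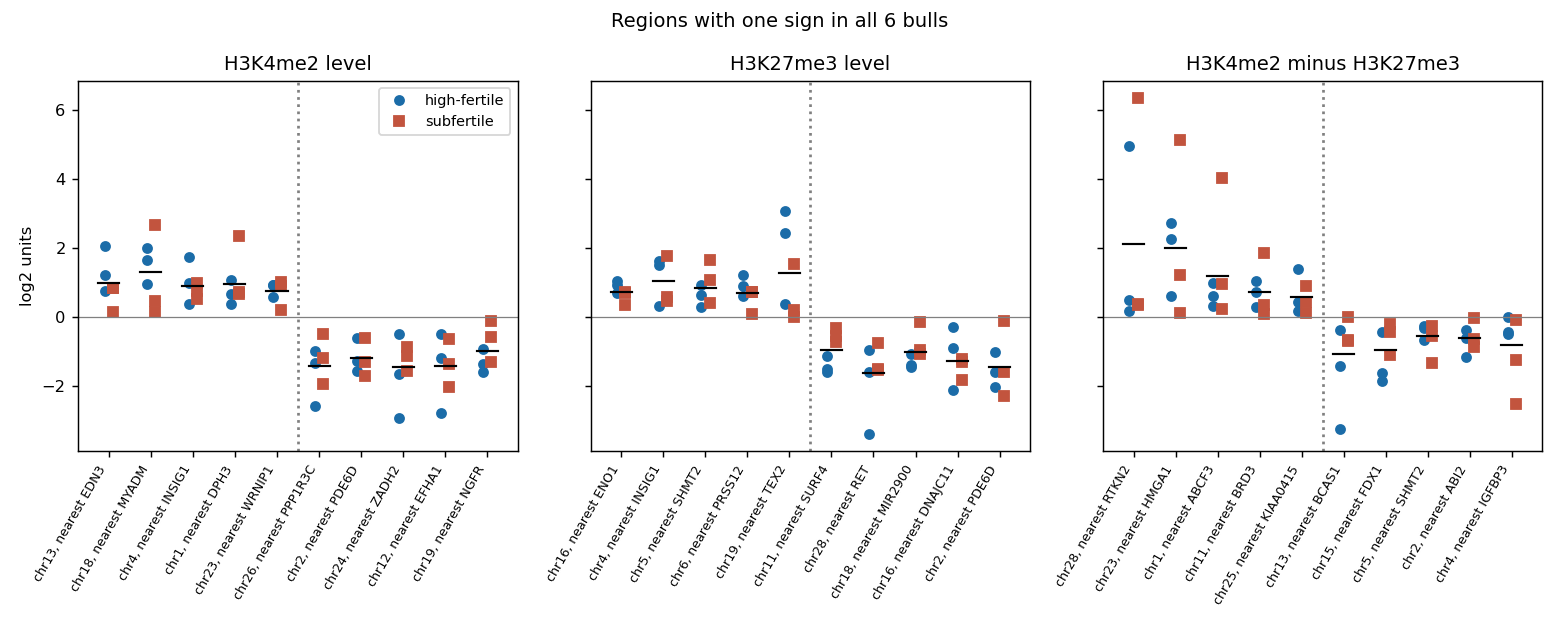
Values by bull (circles high-fertile, squares subfertile, bar at the mean of the 6) of the described regions with one sign in all 6 bulls: H3K4me2 and H3K27me3 log2 ratio relative to the array median (left and middle) and their difference (right), in log2 units. The levels lie between -3.39 and 3.07, and the widest values of the difference are those of HF5 and SF5 at chr28, nearest RTKN2 (4.95 and 6.36).

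The 3 regions with the most probes, chosen by size alone, lay near the median for both marks. chr12:19004300-19014564 spanned 10265 bp with 380 probes in 37 stretches and averaged 0.19 ± 0.32 for H3K4me2 and 0.14 ± 0.26 for H3K27me3 (SD, n = 6). Its probes differed among themselves by a median SD of 0.92 within an array. chr13:40590813-40597805 (271 probes) averaged 0.061 ± 0.31 and -0.13 ± 0.35, and chr1:1632460-1640497 (235 probes; 44175 bp from a probe of OLIG1, a transcription factor of oligodendrocytes) 0.12 ± 0.15 and -0.10 ± 0.084 (SD, n = 6). Between the fertility groups the chromosome 13 region differed by 0.44 for H3K4me2 (interval -0.54 to 1.41) and 0.39 for H3K27me3 (interval -0.52 to 1.31), and the other 2 by -0.072 to 0.076, each with an interval that reached at least 0.76 to either side.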

How the data were processed

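H3K4me2 and H3K27me3 were measured in sperm of 6 bulls on 12 two-colour arrays. The authors deposited scanner files made with Agilent Feature Extraction 10.7, per the submitters' processing notes (10.7.3.1 per the file headers): an intensity per spot and colour, background-subtracted and dye-normalized, and quality flags of 0 or 1. The table of values they deposited is on a log2 scale, ChIP over input, with a brightness correction whose method is not stated in the sources used here; its columns correlated with loess-normalized ratios at r of 0.982 to 0.995, its column medians ran from -0.13 to 0.1, and it served as an alternative. Probe positions are the array's own.

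Ratios of processed Cy5 over Cy3 signal were taken as log2 and centred on the median of the 177440 non-control probes. A probe was kept if at least 6 of the 12 arrays flagged its input as well above background (63714 of 63739 in the regions). Spots flagged as outliers, 13 to 546 on an array, were treated as missing and saturated ones retained. Kept probes were averaged per region. A second probe design on the array, 4894 probes whose own position stands in place of a region, gave no region of 2 probes. Members and all lists were chosen with earlier results of these data known.

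Fits used limma 3.58.1 in R 4.3.3 (lmFit, eBayes, two-sided) over 11734 features, with Benjamini-Hochberg adjustment at 0.05; levels were tested against 0. The fitting code was tested on simulated data whose arrays were independent and of equal spread, unlike the arrays here. Described regions had at least 5 probes: per fertility comparison and for its difference between marks, 5 per direction past 0.05 without overlap of the groups, filled by the smallest unadjusted p without overlap; for levels and the mark difference, 5 per direction with one sign in all 6 bulls by the same order; and the 3 regions with most probes. The 2 arrays of a bull are paired, since the labels name the same bull and its input deviations from the 6-bull mean correlated at 0.965 to 0.992 across regions; HF5 and SF5 are different bulls. Alternatives covered normalization, background, input, filters, probe summary, slide, bull as a block and leaving out bulls. Thinning to probes that share no base, leaving out HF5 with SF5, and grouping the second design were added after seeing the data.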

Additional observations from a re-analysis of the deposited data

Results flagged for a closer look

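Dixon's test over the 6 bulls was run on 44 sets of values of these regions, and 5 held a bull set apart from the others. By chance it flags about 5 in 100 unselected sets. Most sets here are described regions chosen on the same values, and a bull's 2 marks share its input, so that rate need not hold. The unnamed islands lay below the symbol-named CpG island features by more in HF5 than elsewhere, for H3K4me2 at -0.073 (the other bulls from -0.021 to 0.0037) and for H3K27me3 at -0.075 (from -0.0078 to 0.019). The difference of H3K4me2 from H3K27me3 at chr1:84871404-84872206 was 4.04 in SF5, against 0.23 to 0.98 in the others. The H3K4me2 value of chr1:156515048-156515476 was 2.34 in SF5, against 0.36 to 1.08. The H3K27me3 value of chr28:12228833-12229607 was -3.39 in HF3, against -1.61 to -0.75.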

How the results depend on the processing

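In all 130 fits (6 comparisons under their settings) limma called 0 regions at an adjusted p of 0.05; the lowest adjusted p was 0.190. The number with an unadjusted p under 0.05 moved more. With the bulls' average input it was 66 (1.34%, beside 1.51% of all features) for H3K4me2 between the fertility groups, 133 (2.70%, beside 2.57%) for the difference between marks and 105 (2.13%, beside 1.93%) for H3K4me2 against H3K27me3, and with the bull as a replicate block it was 198 and 204 for the latter 2, both with 0 calls. With slide as a random block these were 143 and 138. Within 1 mark that block was not fitted, and only slide 4 holds more than 1 bull. Leaving out 1 bull in turn gave 151 to 228 for H3K4me2 and 176 to 339 for H3K27me3 between the groups. It gave 10 to 65 for the difference between marks and 11 to 68 for the mark comparison. For the levels it gave 166 to 267 and 205 to 394. The cause was not tested. Shares over all features are not given for the slide-block and leave-one-out counts, apart from the 339 above. Nothing about the regions is read from these counts. Of 1270 values of the described regions under other settings 1270 kept their sign, which their choice largely fixes. Of the 60 described values, 9 moved by over 1.5 times without 1 bull, 3 of the difference between marks and 6 of the mark comparison. With only probes that share no base kept, the class mean was 0.081 for H3K4me2 and 0.026 for H3K27me3, beyond the spread between bulls of the main values. Under the other settings, leaving out a bull included, the class mean ran from 0.013 to 0.031 and from -0.027 to 0.0024. The share of variance between regions ran from 46.4% to 51.5% and from 47.1% to 50.3%. Differences within slide 4 (HF5 minus SF1) ran from -4.55 to 4.07 in the described fertility regions, with no second array per group.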
